A study of Mus musculus with 6 samples.

Results

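A set of 10 genes of major histocompatibility complex (MHC) class I antigen presentation was followed in a mouse gastric adenocarcinoma line and its paclitaxel-resistant derivative, chosen by name from the 21959 genes of the count table. They were the heavy chain genes H2-K1 and H2-D1, the light chain gene B2m, the loading gene Tapbp, the immunoproteasome subunit genes Psmb8, Psmb9 and Psmb10, the trimming peptidase gene Erap1, the class I transactivator gene Nlrc5 and Cd274, which encodes the checkpoint ligand PD-L1. All 10 were in the table, and 8 passed the filter on low counts. Psmb8 and Nlrc5 did not, and are given as counts.

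The parental line, MPC in the labels and MTC in the study, carried the genotype CDH1-/-;Trp53-/- and served as the control. The resistant line, MPC-PTX in the labels and MTC-R in the study, carried the same genotype and had been through over 30 cycles of paclitaxel (PTX). Both were cultured cells in the same medium, and each was sequenced as 3 libraries of batch 1. The parental line came from gastric organoids of a C57BL/6J mouse carrying Mist1-CreER, Cdh1 flox/flox and Trp53 flox/flox, which were grown under the skin of a BALB/c nude mouse and then cloned, and the resistant line was cloned as well, so each line stands for 1 clone. The labels do not say whether the libraries of a line came from separate cultures, so the p-values measure the spread between these libraries, which may be technical.

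Class I molecules show fragments of a cell's own proteins to CD8+ T cells. The proteasome cuts proteins into peptides, the TAP transporter moves them into the endoplasmic reticulum, ERAP1 trims them there, and tapasin, the Tapbp product, helps to load them onto a heavy chain paired with beta-2 microglobulin. Interferon gamma is known to raise most genes of this route, and it exchanges the catalytic proteasome subunits for Psmb8, Psmb9 and Psmb10. In epithelial tumours the route matters because T cells and natural killer cells read the class I level from opposite sides.

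The promoters of H2-K1, H2-D1 and B2m are shown because these genes encode the chains of the class I molecule itself and because the only changes among the 10 genes that passed the test were in H2-K1 and B2m. Each window runs from 250 bases before to 50 bases after the RefSeq start and is written 5′ to 3′ on the gene's strand (RefSeq, GRCm38.p6). H2-K1 lies at chr17:34000298-34000597 on the minus strand, H2-D1 at chr17:35262844-35263143 on the plus strand and B2m at chr2:122147437-122147736 on the plus strand. Capitals mark every match, on either strand, to the letters GGGNNTTCC (kappa B), GAAANNGAA or GAANNGAAA (the ends of the interferon-stimulated response element), TTCNNNGAA (the interferon gamma activated site), TGACG (X2 box) and CCAAT (Y box). The letters GAANNGAAA were added after matches to the others had been seen.
H2-K1: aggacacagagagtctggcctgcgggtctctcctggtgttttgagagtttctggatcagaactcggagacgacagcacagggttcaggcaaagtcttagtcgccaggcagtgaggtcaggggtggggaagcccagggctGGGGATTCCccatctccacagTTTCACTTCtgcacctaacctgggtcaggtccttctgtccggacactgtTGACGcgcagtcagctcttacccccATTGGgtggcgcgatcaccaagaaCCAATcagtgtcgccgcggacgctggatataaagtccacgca
H2-D1: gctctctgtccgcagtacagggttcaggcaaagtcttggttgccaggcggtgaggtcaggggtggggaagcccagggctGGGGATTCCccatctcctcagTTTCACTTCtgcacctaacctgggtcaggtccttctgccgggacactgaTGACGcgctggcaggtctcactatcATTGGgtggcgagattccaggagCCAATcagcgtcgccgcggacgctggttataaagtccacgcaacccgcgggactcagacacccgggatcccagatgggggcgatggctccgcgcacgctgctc
B2m: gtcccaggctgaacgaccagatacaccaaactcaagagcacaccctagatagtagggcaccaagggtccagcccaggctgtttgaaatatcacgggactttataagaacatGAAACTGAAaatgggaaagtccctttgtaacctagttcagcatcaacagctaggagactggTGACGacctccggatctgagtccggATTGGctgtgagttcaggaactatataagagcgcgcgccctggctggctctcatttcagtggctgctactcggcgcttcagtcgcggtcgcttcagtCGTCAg

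The H2-K1 and H2-D1 windows shared 73.3% of 240 bases, compared without gaps at the best single offset. The stretch between ATTGG and CCAAT differs in length between them, so the bases after it were compared out of register. An alignment with gaps was not run and could give a higher share. Both held, in the same order, a kappa B match, the response element letters GAANNGAAA, an X2 box match and Y box matches. The B2m window held GAAANNGAA, X2 box and Y box matches and no match to GGGNNTTCC. That pattern does not find kappa B sites of another length, so it cannot tell whether the B2m window lacks a kappa B site. In all 3 windows 20 bases lay between TGACG and the next ATTGG, the reverse complement of CCAAT, a spacing that was looked for after the matches had been seen and that 0.0953% of 32544 promoter windows held. Taken singly the letters were more frequent: kappa B was in 5.85% of all windows, GAAANNGAA in 8.53%, GAANNGAAA in 7.57%, the activated site in 8.33%, the X2 box letters in 20.9% and the Y box letters in 37.4%. Among the 9 of 10 genes with a window, GAAANNGAA was also found for Erap1 and Cd274, the activated site letters for Psmb8 only, the X2 and Y box letters for Psmb9 and the Y box letters for Tapbp. A match to such short letters describes the window and is not a binding site.

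The library totals ran from 16574580 to 23148182 counts, with 13897 to 14295 genes detected in each. The 3 MPC libraries differed among themselves more than the 3 MPC-PTX libraries. The mean chi-square per gene was 61.1 and 32.4 for MPC replicate 3 against MPC replicates 1 and 2. Between MPC replicates 1 and 2 it was 15, and between MPC-PTX libraries 1.83 to 3.36. MPC replicate 3 thus stood apart most, but MPC replicates 1 and 2 also differed more than any MPC-PTX pair. Rank correlations (Spearman's rho) were taken over 11776 genes, which are not independent replicates. For the log2 ratio of MPC replicate 3 to MPC replicate 1 they were -0.55 with GC content and 0.44 with exon length. B2m had a GC content at percentile 9.30 of the tested genes and Erap1 at 10.4, whereas H2-K1, H2-D1, Tapbp and Psmb10 were at 73.7, 81.3, 87.4 and 84.5. Calls that change without this library are therefore given with and without it. All 7 epithelial markers were detected, at a summed level of 9400 to 10888 CPM (counts scaled to a common library size) in MPC and 5678 to 5866 CPM in MPC-PTX, and all 7 were called lower in MPC-PTX. The 11 stomach markers in the table summed to 1074 to 1262 CPM in MPC and 615 to 622 CPM in MPC-PTX, with Tff1, Tff2, Gkn2 and Pgc at 0 in all 6 libraries. Of these 11, 3 passed the filter and all 3 were called lower: Ctse at a log2 fold change of -7.54, Anxa10 at -8.62 and Muc1 at -0.29. The leukocyte markers were near 0 apart from Cd68, a lysosomal protein, which held 10.6 to 12.5 CPM in MPC and 8.91 to 9.95 CPM in MPC-PTX, against 1.19 to 1.65 CPM in MPC and 1.11 to 1.43 CPM in MPC-PTX for the other 11 together. Fewer cells of a type cannot be told apart from less RNA per cell in such bulk libraries. The part of any of these in the results below was not tested.

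The class I heavy chain H2-K1 was higher in the resistant line and its light chain B2m was lower, while the second heavy chain H2-D1, tapasin, the proteasome subunits, Erap1 and Cd274 did not pass the test. In the edgeR quasi-likelihood test, with p-values adjusted by Benjamini-Hochberg over all tested genes, 1 of the 8 tested genes was called higher, against 14.1% of all 11795 tested genes, and 1 of 8 was called lower, against 15.6%. These shares are close to the background. Without MPC replicate 3, 4 of the 8 were called lower, against 27.1% of tested genes, and without MPC replicate 2, MPC-PTX replicate 1 or MPC-PTX replicate 2, 0 were called higher by edgeR, against 6.75% to 7.79%. No gene of the 10 passed the study's own limits, a log2 fold change beyond 1 with an unadjusted p below 0.05, which 3.77% of tested genes passed upwards and 4.34% downwards. At an unadjusted p below 0.05 alone 2 of the 8 passed by edgeR, against 41.0% of all tested genes, and 0 passed the study's limits by DESeq2. The median log2 fold change of the 8 was -0.12, and that of all tested genes was 0.04.

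**Figure D1:**
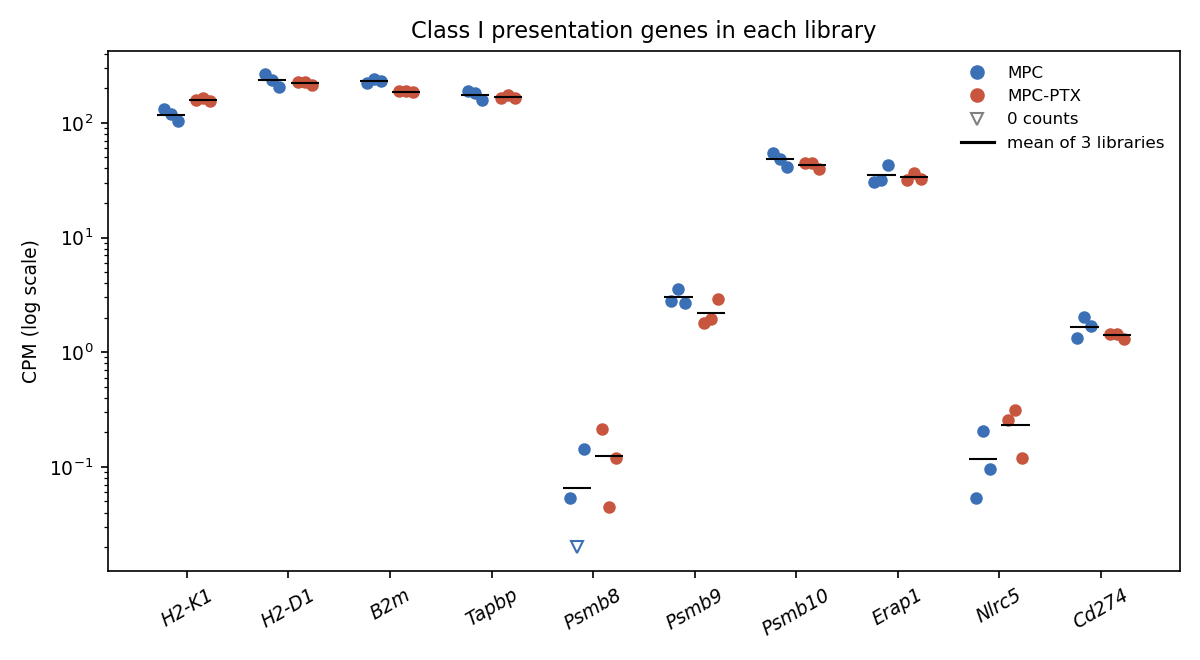
CPM of the 10 class I presentation genes in each library on a log axis, with 1 point per library, MPC in blue and MPC-PTX in red, black lines for the mean of 3 libraries and an open triangle for 0 counts. The genes fall into a well expressed set from Erap1 upwards and a low set of Psmb9, Cd274, Nlrc5 and Psmb8, and the 2 lines separate fully for H2-K1 and B2m.

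H2-K1 (ENSMUSG00000061232, chromosome 17, 33996017 to 34000347, GRCm38) encodes one of the classical heavy chains of this mouse strain, which bind peptide and meet the T cell receptor. Its level was 132, 119 and 103 CPM in the MPC libraries and 159, 164 and 155 CPM in the MPC-PTX libraries. The groups did not overlap, as was so in the upward direction for 24.2% of all tested genes, and the lowest resistant library lay above the highest parental one. The mean rose from 118 ± 14.2 to 159 ± 4.39 CPM (mean ± SD of 3 libraries each), or by 0.43 on the log2 scale with a standard error of 0.09 (edgeR quasi-likelihood test, adjusted p = 0.0125), which is 1.35-fold. The call was narrow: the value was 0.44 without MPC replicate 2 (adjusted p = 0.0523), 0.43 without MPC-PTX replicate 1 (adjusted p = 0.0546) and 0.41 without MPC-PTX replicate 2 (adjusted p = 0.0616). Without MPC replicate 3 it was 0.29 and was still called, by the same test. None of the 100-base stretches of the longest H2-K1 transcript occurred in transcripts of another gene.

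H2-D1 (ENSMUSG00000073411, chromosome 17, 35262730 to 35267499) encodes the other classical heavy chain of the strain. It stood at 264, 237 and 205 CPM in MPC and at 229, 226 and 215 CPM in MPC-PTX. The resistant libraries all fell inside the parental range, so the groups overlapped. The log2 fold change was -0.08 with a standard error of 0.09 (edgeR quasi-likelihood test, adjusted p = 0.571). Its call turned on MPC replicate 3: without that library the value was -0.22 (adjusted p = 0.00595, same test), and a correction for GC content and length gave 0.05. In H2-D1, 4.64% of the 100-base stretches also occurred in transcripts of other genes, H2-K2, H2-Q1 and H2-T23 among them, so some of its reads could have been shared out differently by the authors' counting.

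The 2 heavy chains were compared directly within each library, where sequencing depth cancels. For every 100 counts of H2-D1 there were 49.8, 50.3 and 50.3 counts of H2-K1 in MPC and 69.4, 72.6 and 72.2 in MPC-PTX. The parental libraries lay within 1 count of each other on this scale, MPC replicate 3 included, and the groups did not overlap. The ratio was 1.42-fold higher in MPC-PTX (two-sided exact permutation test, p = 0.1, the smallest that 3 against 3 allows). The summed counts of both genes had a log2 fold change of 0.11 (edgeR quasi-likelihood test, adjusted p = 0.401), and those of all 27 H2 class I heavy chain genes in the table one of 0.04 (adjusted p = 0.747, same test). Both sums were added after the data were seen. H2-K1 and H2-D1 held 75.7% to 78.3% of all heavy chain counts in MPC and 80.5% to 81.3% in MPC-PTX.

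B2m (ENSMUSG00000060802, chromosome 2, 122147686 to 122153083) encodes beta-2 microglobulin, the light chain that pairs with the classical heavy chains. Its level was 224, 240 and 233 CPM in MPC and 190, 187 and 184 CPM in MPC-PTX. All resistant libraries lay below all parental libraries, as was so for 22.7% of all tested genes. The mean fell from 232 ± 7.92 to 187 ± 2.99 CPM (mean ± SD of 3 libraries each), at a log2 fold change of -0.31 with a standard error of 0.06 (edgeR quasi-likelihood test, adjusted p = 0.00614), so that MPC was 1.24-fold higher. B2m was called lower in all 14 alternatives run, with values from -0.38 to -0.27, leaving out each library in turn and the correction for GC content and length included.

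The heavy chains were then set against the light chain. For every 100 counts of B2m there were 58.8, 49.7 and 44.4 counts of H2-K1 in MPC and 83.4, 87.4 and 84.1 in MPC-PTX. The groups did not overlap, with a ratio 1.68-fold higher in MPC-PTX (two-sided exact permutation test, p = 0.1, again the smallest possible). For H2-D1 over B2m the values were 118, 98.8 and 88.1 in MPC and 120, 120 and 116 in MPC-PTX. Here MPC replicate 1 lay within the resistant range (exact permutation test, p = 0.2). A ratio within a library cancels depth, but not differences that follow GC content or length. Corrected for these, the log2 fold changes were 0.57 for H2-K1, 0.055 for H2-D1 and -0.38 for B2m. Without MPC replicate 3 they were 0.29, -0.22 and -0.36. Per kilobase of the principal transcript, B2m was the most abundant of the 10 in both lines, at 270 ± 9.21 CPM per kilobase in MPC and 218 ± 3.47 in MPC-PTX. H2-D1 followed at 112 ± 14.0 and 106 ± 3.46, and H2-K1 at 72.9 ± 8.76 and 98.3 ± 2.71.

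**Figure D2:**
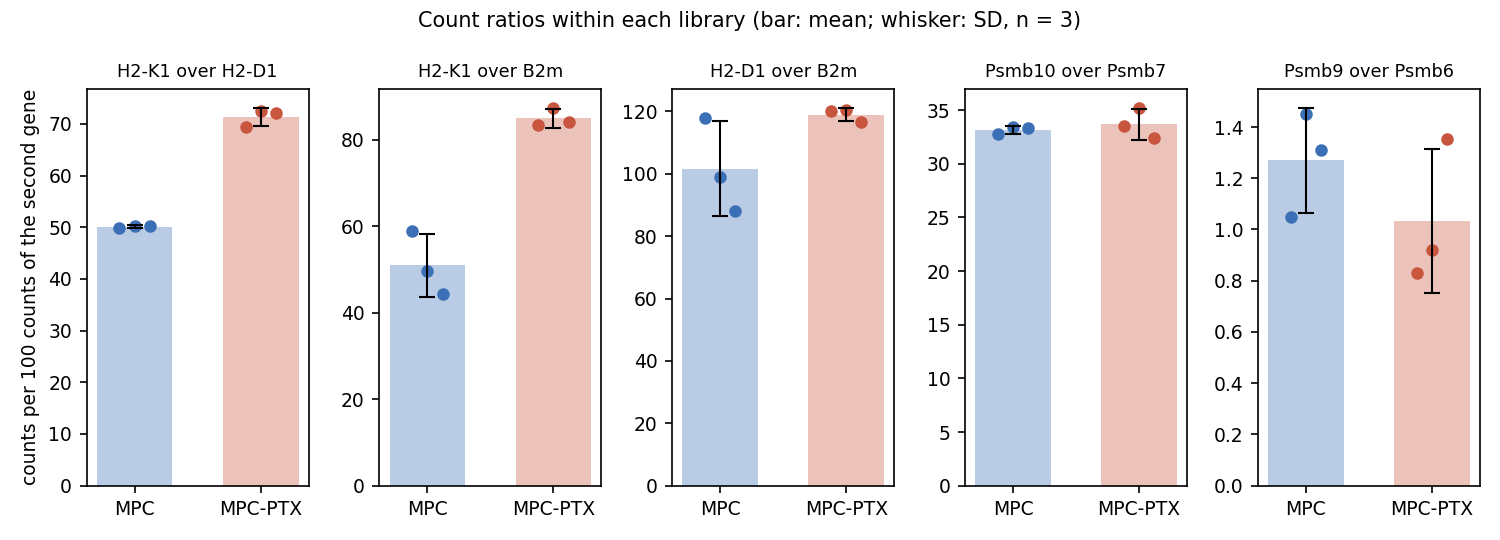
Counts of the first gene per 100 counts of the second gene in each library, with bars for the mean, whiskers for the SD (n = 3) and a point per library. H2-K1 over H2-D1 was 49.8 to 50.3 in MPC and 69.4 to 72.6 in MPC-PTX, whereas Psmb10 over Psmb7 and Psmb9 over Psmb6 overlapped between the lines.

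Tapbp (ENSMUSG00000024308, chromosome 17, 33915899 to 33929292) encodes tapasin, which bridges the empty class I molecule to the peptide transporter. It stood at 189, 182 and 158 CPM in MPC and 166, 173 and 164 CPM in MPC-PTX. The groups overlapped, and the log2 fold change was -0.07 with a standard error of 0.08 (edgeR quasi-likelihood test, adjusted p = 0.546). As with H2-D1, leaving out MPC replicate 3 made this a call, at -0.19 (adjusted p = 0.00637, same test). With all libraries and a correction for GC content and length the value was -0.012 (adjusted p = 0.863, same test). Per kilobase, Tapbp was at 60.7 CPM in MPC and 57.8 CPM in MPC-PTX. The order of H2-K1 and Tapbp in MPC depended on the length used, since over all annotated exons H2-K1 was at 40.2 and Tapbp at 48.5 CPM per kilobase.

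The immunoproteasome subunits stood at very different levels, at 36.6 CPM per kilobase for Psmb10, 2.23 for Psmb9 and 0.040 for Psmb8 in MPC and at 32.7, 1.64 and 0.077 in MPC-PTX. Psmb10 (chromosome 8, 105935735 to 105938444), which replaces the trypsin-like subunit Psmb7, was at 54.4, 48.1 and 41.5 CPM in MPC and 44.3, 44.5 and 39.9 CPM in MPC-PTX. Its groups overlapped, with a log2 fold change of -0.16 and a standard error of 0.11 (edgeR quasi-likelihood test, adjusted p = 0.315). Without MPC replicate 3 it was called lower at -0.31 (adjusted p = 0.00818, same test). The correction for GC content and length, with all libraries, gave -0.053 (adjusted p = 0.526, same test). Psmb9 (chromosome 17, 34181987 to 34187764), which replaces the caspase-like subunit Psmb6, had 53, 69 and 56 counts in MPC and 42, 43 and 49 counts in MPC-PTX. As CPM these were 2.82, 3.56 and 2.69 against 1.79, 1.94 and 2.91. MPC-PTX replicate 3 lay within the parental range, and the log2 fold change of -0.47 with a standard error of 0.24 did not pass (edgeR quasi-likelihood test, adjusted p = 0.185).

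Psmb8 (chromosome 17, 34197721 to 34201454), which replaces the chymotrypsin-like subunit Psmb5, was barely read, with 1, 0 and 3 counts in MPC and 5, 1 and 2 counts in MPC-PTX. That is 4 counts of 59845545 in MPC against 8 of 61630084 in MPC-PTX, a ratio of 1.94 with an exact 95% interval of 0.52 to 8.81 that covers counting error only. A difference of this size was not detectable at this depth. Without the filter on low counts its log2 fold change was 0.86 (edgeR quasi-likelihood test, adjusted p = 0.583).

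Each immunoproteasome subunit was also set against the constitutive subunit that it replaces. Psmb10 had 32.7, 33.4 and 33.4 counts per 100 counts of Psmb7 in MPC and 33.5, 35.2 and 32.4 in MPC-PTX (two-sided exact permutation test, p = 0.7). Psmb9 had 1.05, 1.45 and 1.31 counts per 100 counts of Psmb6 in MPC and 0.83, 0.92 and 1.35 in MPC-PTX (exact permutation test, p = 0.3). Psmb8 stayed at or below 0.242 counts per 100 counts of Psmb5 in every library (exact permutation test, p = 0.5). Groups of 3 against 3 cannot give a p below 0.1. The constitutive subunits were not called either: the log2 fold change was 0.00 for Psmb5 (adjusted p = 0.997), -0.16 for Psmb6 (adjusted p = 0.252) and -0.19 for Psmb7 (adjusted p = 0.229), by the edgeR quasi-likelihood test. Without MPC replicate 3 Psmb6 and Psmb7 were called lower, at -0.31 (adjusted p = 0.000408) and -0.34 (adjusted p = 0.00127, same test).

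Erap1 (ENSMUSG00000021583, chromosome 13, 74639568 to 74693201), which trims peptides in the endoplasmic reticulum to the length that class I binds, was at 30.3, 31.9 and 42.7 CPM in MPC and 31.6, 36.3 and 32.6 CPM in MPC-PTX. MPC replicate 3 was the highest of the 6 libraries. The log2 fold change was -0.06 with a standard error of 0.14 (edgeR quasi-likelihood test, adjusted p = 0.766), and it became 0.05 without MPC replicate 3.

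Nlrc5 (chromosome 8, 94434356 to 94527272), the transactivator that drives class I promoters through the X and Y boxes, was read 1, 4 and 2 times in MPC and 6, 7 and 2 times in MPC-PTX. The 7 and 15 counts in all gave a ratio of 2.08 with an exact 95% interval of 0.80 to 6.03 (counting error only). At this depth a difference was not detectable, and without the filter on low counts the log2 fold change was 0.96 (edgeR quasi-likelihood test, adjusted p = 0.404). Per kilobase it was the lowest of the 10 in both lines, at 0.016 CPM in MPC and 0.030 CPM in MPC-PTX.

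Cd274 (ENSMUSG00000016496, chromosome 19, 29367455 to 29388095) encodes PD-L1, which restrains T cells that have recognised a class I molecule. It had 25, 39 and 35 counts in MPC and 34, 32 and 22 counts in MPC-PTX, or 1.33, 2.01 and 1.68 CPM against 1.45, 1.44 and 1.31 CPM. The groups overlapped, and the log2 fold change was -0.25 with a standard error of 0.23 (edgeR quasi-likelihood test, adjusted p = 0.437). Cmtm6, which stabilises PD-L1 at the surface, was at 67.3, 67.6 and 66.8 CPM in MPC and at 83.3, 79.6 and 79.8 CPM in MPC-PTX. It was called higher, at a log2 fold change of 0.27 (edgeR quasi-likelihood test, adjusted p = 0.0163), but not without MPC replicate 2 or any 1 of the MPC-PTX libraries (adjusted p = 0.0583 to 0.0965, same test).

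**Figure D3:**
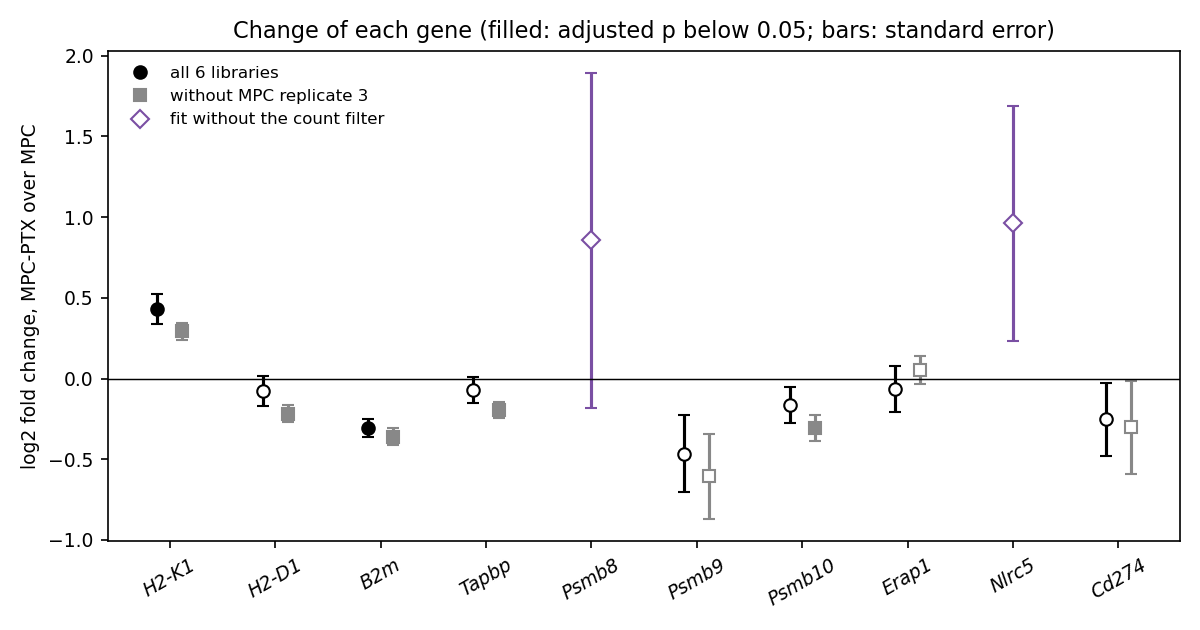
Log2 fold change of each gene, MPC-PTX over MPC, with its standard error, for all 6 libraries (circles) and without MPC replicate 3 (squares), filled where the adjusted p was below 0.05. Diamonds give Psmb8 and Nlrc5 from the fit without the count filter. H2-K1 and B2m are filled in both fits, and H2-D1, Tapbp and Psmb10 only without MPC replicate 3.

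The other genes of the route were taken from fixed lists, and their counts are read against the shares of all tested genes. These were 14.1% higher and 15.6% lower with all libraries, 18.3% and 17.7% without MPC replicate 1, 7.79% and 10.2% without MPC replicate 2, 25.4% and 27.1% without MPC replicate 3, and 6.75% to 7.02% and 9.04% to 9.42% without any 1 of the MPC-PTX libraries. Of 14 loading and transport genes, all tested, 2 were called higher and none lower, with a median log2 fold change of 0.10. At an unadjusted p below 0.05 by edgeR, 5 were higher and 0 lower, against 41.0% of all tested genes in either direction. DESeq2 called 0 in either direction, against 12.3% of all tested genes higher and 16.6% lower. The count called higher by edgeR was 6 without MPC replicate 1 (with 1 lower), 4 without MPC replicate 3 and 0 without MPC replicate 2 or any 1 of the MPC-PTX libraries. Tap2, one chain of the peptide transporter, was at 4.99, 4.90 and 3.70 CPM in MPC and 6.58, 6.94 and 6.54 CPM in MPC-PTX, with no overlap and a log2 fold change of 0.56 (edgeR quasi-likelihood test, adjusted p = 0.0282). It lost its call without MPC replicate 2 or any 1 of the MPC-PTX libraries (adjusted p = 0.0579 to 0.109, same test), and with DESeq2 (adjusted p = 0.0542). The other called gene was Uggt1, a sensor of glycoprotein folding that was named after its values were seen and was called in 5 of 14 alternatives. Tap1, the partner chain of Tap2, had a log2 fold change of 0.09 (adjusted p = 0.648, same test), and the editor Tapbpl, the chaperones Calr and Canx and the oxidoreductase Pdia3 of the loading complex had values of 0.06, 0.06, 0.26 and -0.16, none of them called. The Canx libraries did not overlap between the lines, at 655 to 804 CPM in MPC and 852 to 873 CPM in MPC-PTX (adjusted p = 0.054, same test). Canx was called in 5 of 14 alternatives, among them without MPC replicate 3, at 0.30 (adjusted p = 0.000376, same test). Pdia3 was called without MPC replicate 1, at -0.24 (adjusted p = 0.016, same test).

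Of 12 tested genes of the proteasome activator and the cytosolic peptidases, 1 was called higher and 4 lower, with a median of 0.15. Called higher were 3 without MPC replicate 1 and 5 without MPC replicate 3, and called lower were 2 without MPC replicate 2 and 1 without any 1 of the MPC-PTX libraries. Psme1 and Psme2, the activator subunits that interferon gamma induces, were both called lower. Psme1 was at 180, 178 and 152 CPM in MPC and 118, 119 and 121 CPM in MPC-PTX, a log2 fold change of -0.51 (edgeR quasi-likelihood test, adjusted p = 0.00321) that was called in all 14 alternatives. Psme2 was at 132, 123 and 106 CPM in MPC and 99.6, 97.0 and 91.1 CPM in MPC-PTX, a log2 fold change of -0.33 (adjusted p = 0.036, same test). It lost its call without MPC replicate 1, MPC replicate 2 or any 1 of the MPC-PTX libraries (adjusted p = 0.0511 to 0.142, same test). Its value is uncertain, since 44.5% of its 100-base stretches also occurred in Psme2b. The other activators of the list, named after their values were seen, had positive values, at 0.17 for Psme3 (adjusted p = 0.099, same test) and 0.33 for Psme4 (adjusted p = 0.334, same test). Psme3 was called without MPC replicate 1, at 0.22 (adjusted p = 0.0237, same test), and with scaling by library size alone, at 0.21 (adjusted p = 0.044). It was also called at 0.25 with GC content and length corrected, without and with a replicate block (adjusted p = 0.0071 and 0.0132, same test). Psme4 was called without MPC replicate 3, at 0.63 (adjusted p = 6.99e-05, same test). With that correction and the block it was called at 0.28 (adjusted p = 0.0416, same test).

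Of 19 constitutive 20S and assembly genes, 1 was called higher and 5 lower, with a median of -0.19. The count called lower was 16 without MPC replicate 3, 3 without MPC replicate 2 and 2 without any 1 of the MPC-PTX libraries. The 5 were the alpha ring subunits Psma2, Psma3, Psma5, Psma6 and Psma7, named after their values were seen, of which Psma2 and Psma6 were called in all 14 alternatives.

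Among the other class I and class I-like heavy chains, 11 of the 23 in the table passed the filter, 3 of which were called higher (1 without MPC-PTX replicate 1) and 2 lower, with a median of 0.52. H2-T23 encodes Qa-1, a non-classical molecule that shows class I leader peptides to natural killer cells. It was at 41.2, 43.2 and 42.5 CPM in MPC and 27.8, 29.0 and 30.2 CPM in MPC-PTX. The groups were well apart, and the log2 fold change was -0.54 (edgeR quasi-likelihood test, adjusted p = 0.00195), called in all 14 alternatives. The gene shared 3.93% of its 100-base stretches with other genes, mostly of the H2 family. H2-M3, which presents formylated peptides, had 19, 10 and 26 counts in MPC and 55, 57 and 45 counts in MPC-PTX, a log2 fold change of 1.44 (adjusted p = 0.0107, same test). Azgp1, a secreted class I-like protein, had 186, 302 and 266 counts in MPC and 73, 51 and 38 counts in MPC-PTX, a log2 fold change of -2.30 (adjusted p = 0.000373, same test). The family thus held genes called in both directions.

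Of 17 tested transcriptional regulators of class I, 1 was called higher and 2 lower, with a median of 0.12. Called higher were 3 without MPC replicate 1, 4 without MPC replicate 3 and, by edgeR, 0 without MPC replicate 2 or any 1 of the MPC-PTX libraries, and called lower was 1 without any 1 of these last libraries. Irf1, which binds the interferon-stimulated response element of class I promoters, was at 61.1, 74.0 and 65.5 CPM in MPC and 39.4, 37.6 and 41.2 CPM in MPC-PTX. All resistant libraries lay below all parental ones, and the log2 fold change was -0.76 with a standard error of 0.09 (edgeR quasi-likelihood test, adjusted p = 0.00111), called in all 14 alternatives. Irf2 and the X box factor Rfx5 had values of 0.19 and -0.14 and were not called (adjusted p = 0.0848 and 0.251, same test). Of 12 tested genes of the interferon receptor route, 1 was called higher and 3 lower, with a median of -0.17. Called higher were 3 without MPC replicate 1 and, by edgeR, 0 without MPC replicate 2 or any 1 of the MPC-PTX libraries, and called lower were 5 without MPC replicate 1 or MPC replicate 3. Ifngr1, the ligand-binding chain of the interferon gamma receptor, was named after its values were seen: it was at 166, 190 and 184 CPM in MPC and 88.0, 93.7 and 89.7 CPM in MPC-PTX, a log2 fold change of -0.99 (edgeR quasi-likelihood test, adjusted p = 0.00013). The other chain, Ifngr2, also named after its values were seen, had the opposite sign and was not called. Its level was 95.2, 88.8 and 81.2 CPM in MPC and 100, 96.8 and 100 CPM in MPC-PTX, a log2 fold change of 0.17 (adjusted p = 0.149, same test). Ifng, which encodes interferon gamma, had 0 counts in all 6 libraries.

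**Figure D4:**
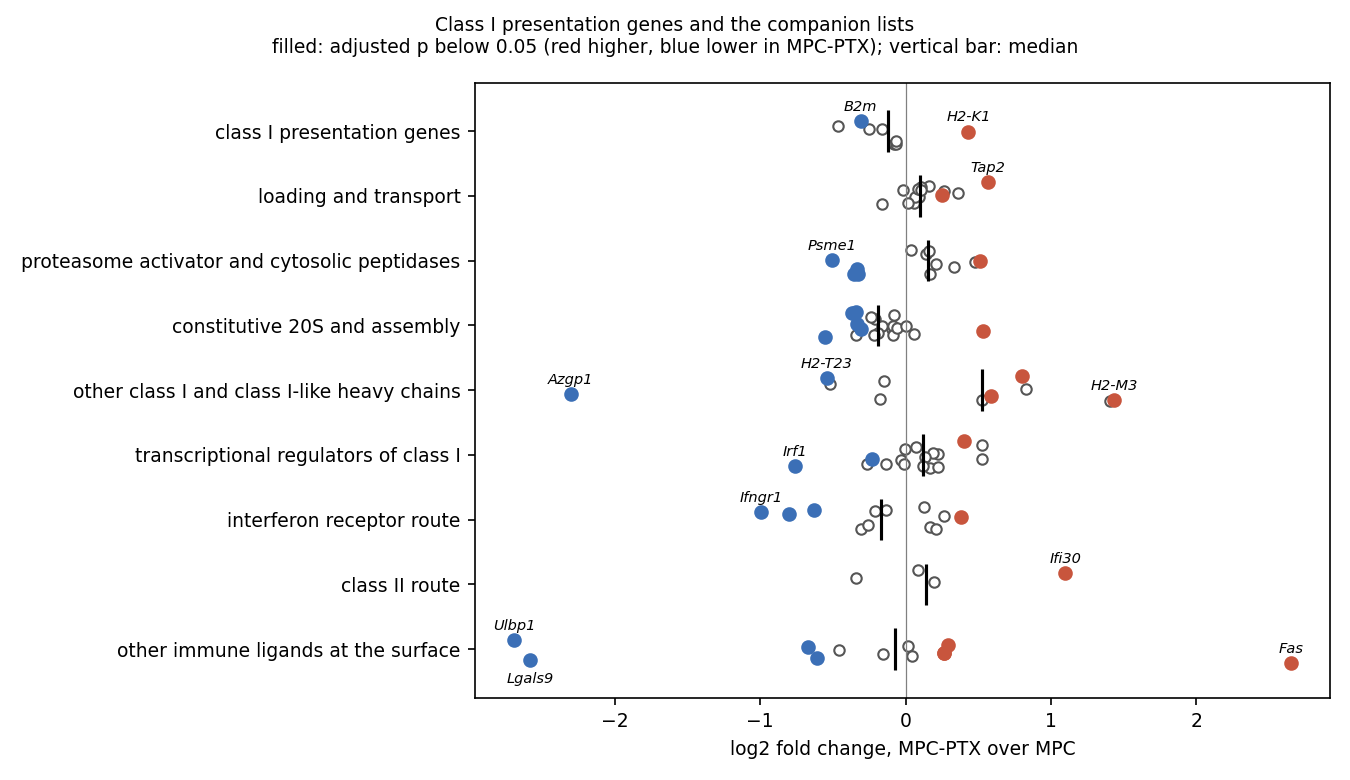
Log2 fold change, MPC-PTX over MPC, of every tested class I presentation gene and of each companion list, with 1 point per gene, filled where the adjusted p was below 0.05, and a vertical bar at the median of each list. Calls in both directions appear in 7 of the 9 rows, and the class I presentation genes lie between -0.47 and 0.43.

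Over all companion lists, 14 of 101 tested genes were called higher and 20 lower, against the 14.1% and 15.6% of all tested genes given above. Of these 34 calls 16 were kept in every alternative run, 4 higher and 12 lower. The share of all tested genes kept in this way was not computed, so these counts have no background to be read against. The totals moved with single libraries: 25 were called higher without MPC replicate 1 or MPC replicate 3 and 5 or 6 without MPC replicate 2 or any 1 of the MPC-PTX libraries, and 38 were called lower without MPC replicate 3 and 12 without any 1 of the MPC-PTX libraries. The genes around each member on its chromosome were also described. Within 0.5 Mb of H2-K1 the median log2 fold change of 28 tested genes was 0.04, with 2 called higher and 4 lower, and around H2-D1 that of 39 genes was -0.11. The 9 tested genes near B2m had a median of 0.23, with the opposite sign to B2m itself. Near Psmb10 the median of 28 genes was 0.18, and chromosome 8 as a whole stood at 0.26 over 663 genes. The tested genes whose level followed H2-K1 most closely, by the root mean square difference of centred log2 CPM over the 6 libraries, were Snapc2 at 0.0078, Gla at 0.022, Per1 at 0.022, Mtfr1l at 0.024 and Plod3 at 0.025.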

How the data were processed

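Poly-A selected RNA of 3 MPC and 3 MPC-PTX libraries was sequenced. The authors trimmed the reads (fastp 0.22.0, per the submitters' processing notes), aligned them with HISAT2 and deposited a raw count per gene; the genome build, annotation, counting tool and use of strand are not given in the sources used here. The counts were used as deposited. They were fitted with edgeR 4.0.16 in R 4.3.3 (TMM, filterByExpr with a minimum of 10, robust quasi-likelihood test, Benjamini-Hochberg adjustment over 11795 genes), with DESeq2 1.42.0 as an alternative. A gene was called at an adjusted p below 0.05. CPM values are scaled by TMM. The fit was tested on simulated counts with the same dispersion in every library and changes larger than those of H2-K1 and B2m. That test does not cover changes of their size or the spread among the MPC libraries. Ensembl identifiers were matched to GENCODE M21 (GRCm38) for positions, lengths, GC content and shared 100-base stretches, and symbols to RefSeq promoters (GRCm38.p6), where 9 of 10 genes matched. Count ratios within a library carried a pseudocount of 0.5 in their log2 tests. Exact intervals cover counting error only, and reads are not independent molecules. The totals of 16574580 to 23148182 counts limit the precision for genes of few counts.

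The genes and lists were chosen with earlier results of these data known. Named genes were all 10 members, 17 listed partners, called list genes that moved by more than 1 on the log2 scale, and the 5 genes closest to H2-K1; others are marked in the text, and 1 listed partner is not reported here. Alternatives changed the tool, scaling, filter, GC and length correction, replicate block and each library in turn.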

Additional observations from a re-analysis of the deposited data

How the results depend on the processing

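B2m was lower and called in all 14 alternatives, and H2-K1 was higher in all 14, with values of 0.29 to 0.57, and called in 11. Leaving out 1 library at a time gave 0 to 1 members called higher, 1 to 4 called lower (4 without MPC replicate 3, where 27.1% of all tested genes were called lower), 5 to 25 companion genes called higher and 12 to 38 called lower. The same omissions gave log2 fold changes of 0.29 to 0.52 for H2-K1, -0.22 to 0.013 for H2-D1, -0.19 to -0.017 for Tapbp, -0.31 to -0.064 for Psmb10, -0.16 to 0.053 for Erap1, -0.15 to 0.091 for Psmb5, -0.024 to 0.087 for Tapbpl, -0.041 to 0.092 for Calr and -0.011 to 0.050 for Psmb10 over Psmb7 (negative without MPC-PTX replicate 2). Correcting GC content and length gave 22 companion genes called higher of 101, or 23 with the replicate block, where 21.4% and 21.8% of all tested genes were called higher, and turned H2-D1 to 0.055 in both fits. Psmb5, at 0.00 with all libraries, turned to -0.035 with DESeq2 or its size factors, -0.0050 without the filter, -0.034 with at least 10 counts in every library, -0.026 without MPC-PTX replicate 1 and -0.15 without MPC replicate 3. Without MPC replicate 3 Tapbpl, Calr and Erap1 also changed sign. With all libraries, a window of 1 Mb in place of 0.5 Mb gave a median of -0.0054 for the genes near H2-K1. The causes were not tested. Correlations between libraries of the 2 lines were 0.15, -0.02 and 0.17 for equal replicate numbers and -0.23 to 0.15 for unequal ones. They do not settle whether the replicate numbers pair the libraries. With the replicate block H2-K1 was at 0.44 and B2m at -0.31, with 1 member called in each direction as before. Depth limits Psmb8 and Nlrc5.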

Other observations

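Other molecules by which a tumour cell meets T cells and natural killer cells were described from a list as well. Of the 12 tested genes of this list, not all of them ligands, 4 were called higher and 4 lower, against 14.1% and 15.6% of all tested genes (edgeR quasi-likelihood test, Benjamini-Hochberg adjusted p below 0.05). Without MPC replicate 2 or any 1 of the MPC-PTX libraries, 1 was called higher, against 6.75% to 7.79% of all tested genes. Fas, the death receptor, had 14, 7 and 9 counts in MPC and 69, 70 and 61 counts in MPC-PTX, a log2 fold change of 2.65 (adjusted p = 0.000609). Lgals9, which encodes galectin-9, was at 157, 175 and 147 CPM in MPC and 26.5, 25.2 and 28.2 CPM in MPC-PTX, a log2 fold change of -2.59 (adjusted p = 8.81e-06). Ulbp1, a ligand of the activating receptor NKG2D, had 40, 45 and 78 counts in MPC and 9, 8 and 9 counts in MPC-PTX, a log2 fold change of -2.69 (adjusted p = 0.0013). None of these groups overlapped, and each of the 3 was called in every alternative run.

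Of the class II route only 4 of 13 genes passed the filter. Ifi30, a lysosomal thiol reductase that opens disulfide bonds of antigens, was at 33.2, 27.1 and 26.1 CPM in MPC and 62.2, 60.7 and 62.1 CPM in MPC-PTX, a log2 fold change of 1.10 (adjusted p = 0.000372, same test). Ciita, the class II transactivator, had 1 count in the 6 libraries together. H2-Bl, named after its values were seen, had 34, 2 and 2 counts in MPC and 35, 35 and 37 counts in MPC-PTX, so that MPC replicate 1 lay with the resistant libraries.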
